A study of Homo sapiens with 12 samples.

Results

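The change in ribosome footprints under trametinib was examined in HCT116 cells, a human colorectal carcinoma cell line. Trametinib inhibits MEK1 and MEK2, the kinases that activate ERK. Cells received 100 nM trametinib or the solvent DMSO for 24 h, and 3 footprint libraries were made for each treatment, so that 6 of the 12 libraries of the series form the comparison. The other 6 are input RNA from the same treatments, 3 per group, and serve here as a second readout. All groups are the same unmodified line and differ in the drug alone. Genes entered the footprint test when at least 10 counts were present in at least 3 footprint libraries, whatever their input counts. Of 15798 listed genes, 11941 met this rule, and 1318 of them had too few input counts to be tested there. Footprint libraries held 10127477 to 19181588 counts and input libraries 2276693 to 2845568. The median standard error of a log2 fold change was 0.16 over the 11941 genes in footprints and 0.22 over the 10623 tested in input. The labels give replicate numbers without saying whether they are separate cultures, so p-values measure the spread between these libraries.

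A ribosome covers a short stretch of the mRNA it reads and protects it from RNase, so a count of protected fragments in a reading frame reflects both the amount of mRNA and how densely ribosomes sit on it. Growing cells spend many of their ribosomes on making more ribosomes, histones and the other parts needed for division. The mRNAs of ribosomal proteins and of several elongation factors start with a C followed by a run of pyrimidines (the 5' terminal oligopyrimidine tract, TOP), through which growth signals adjust their translation. ERK signalling promotes growth and cell cycle entry, and its own output includes phosphatases and inhibitors that switch it off again.

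The DMSO footprint library of replicate 1 stood apart from the other DMSO libraries. Summed over genes, 12.4 and 14.4% of its footprints were placed differently from replicates 2 and 3, compared with 6.82% between those and 3.29 to 5.35% among the trametinib libraries. Between a DMSO and a trametinib library the difference was 19.4 to 22.6%. Replicate 1 was high in the ER chaperone HSPA5 (131200 normalised counts against 38135 and 35431) and in the EGFR ligand AREG (45522 against 11430 and 7605), and low in HSP90AA1. For genes named by rule, the value without it is given beside the result where leaving it out changed the call. The same holds where the log2 change of a called gene, or a count over a whole class, moved more than 1.5 times. Smaller moves are not all given. Without it, 60 of 76 mitochondrial ribosomal proteins, 31 of 35 proteasome genes and 49 of 54 splicing genes fell, and 42 of 65 lysosome and autophagy genes rose. With all libraries these counts were 46, 23, 39 and 30. Among 10 colorectal epithelial markers, 7 reached 10 counts in a library and LGALS4 was at 0, and the markers summed to 7413 to 10140 counts scaled to library size (CPM) in DMSO and 12940 to 15071 CPM under trametinib. Leukocyte and endothelial markers summed to less than 3 CPM in every library. Of 6 fibroblast markers, COL1A2, DCN and LUM were absent or at 0, while the sum over the list was 5.69 to 8.0 CPM in DMSO and 20.5 to 32.4 CPM under trametinib. Only 2 of the list reached 10 counts in a library, namely COL3A1, at least 69.2-fold higher, and COL1A1, with a log2 change of 0.22. In such bulk samples, fewer cells of a kind and less RNA per cell cannot be told apart.

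Short sequences known from the promoters or mRNA starts of some classes were searched for in the genes of those classes. In the RefSeq promoter windows (GRCh38.p14) around each gene's start, a TOP-like run, a C followed by at least 4 pyrimidines that begins within 5 bases of the start on the gene's strand, was found in 52 of 64 cytosolic ribosomal protein genes with a window (81.25%). It was found in 21.05% of all 27305 windows, in 12 of 30 windows of initiation factors (40%) and in 2 of 7 windows of elongation factors (28.57%). The capitals mark the run in a large and a small subunit gene and in EEF1A1, the elongation factor gene with the most footprint counts and 1 of the 2 with a run:
RPL13A, chr19:49487593-49487622, plus strand: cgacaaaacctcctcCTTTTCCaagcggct
RPS3, chr11:75399503-75399532, plus strand: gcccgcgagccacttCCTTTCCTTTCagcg
EEF1A1, chr6:73521018-73521047, minus strand: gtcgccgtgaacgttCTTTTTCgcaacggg

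GAAANNGAA, the core of the element read by interferon-activated factors, was present on either strand in 24 of 35 windows of interferon-stimulated genes (68.57%) and in 8.292% of all windows. TTTGAA, the core of the element bound by repressors of cell cycle genes, was present in 38 of 56 windows of mitosis genes (67.86%) and in 15.43% of all. TTTGGCGC or TTTCGCGC, forms of the E2F site, was present in 10 of 39 windows of DNA replication genes (25.64%) and in 1.179% of all. Overlap between matches of different motifs was not counted. Capitals mark the match in a gene of each class:
ISG15, chr1:1013385-1013414, plus strand: aaagggaaaccGAAACTGAAgccaaatttg
PLK1, chr16:23678848-23678877, plus strand: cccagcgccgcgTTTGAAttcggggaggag
MCM7, chr7:100101388-100101417, minus strand: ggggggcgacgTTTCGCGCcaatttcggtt
By contrast, TGATGNAAT, a form of the amino acid response element, was in 0 of 23 windows of stress response genes and 1.022% of all, and TCACNCCAC, a form of the sterol element, in 1 of 26 windows of cholesterol and fatty acid genes and 1.146% of all. A match is a string of letters and was not tested for binding.

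By edgeR's quasi-likelihood test with Benjamini-Hochberg adjustment, called at an adjusted p under 0.05, 2876 of 11941 genes (24.1%) rose and 2926 (24.5%) fell. Together these are 48.6% of the genes tested. The groups did not overlap for 58.9% of genes, 29.8% with trametinib above DMSO and 29.2% with it below. In input 15.5% of genes rose and 16.8% fell. In footprints, at least a 2-fold rise was seen in 1037 of the genes called higher and at least a 2-fold fall in 1132 of those called lower. These values are relative to the other genes of a library. Scaling by library totals instead of by trimmed means (TMM) moved the median log2 change from 0.00 to 0.19. The split became 4034 higher and 2074 lower. Footprint counts hold no measure of the total amount of translation. From polysome profiling and puromycin incorporation in this cell line, the paper reports that the drug reduced global protein synthesis. Genes called higher are thus higher relative to other genes, and their absolute change was not tested. Comparing the group means, 19.8% of the footprints were on other genes after treatment. The gain was spread more widely than the loss, with 279 genes making up 50% of the gain and 175 making up 50% of the loss. The 10 genes with the most footprints held 6.08 to 6.13% of a DMSO library and 5.73 to 6.22% of a trametinib library, so that concentration on the top genes overlapped.

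Of 1226 genes listed in 31 functional classes 1147 were tested, and the listed genes held 39.6% of DMSO footprints and 31.9% of trametinib footprints. The 14593 genes in no class, of which 10794 were tested, went from 60.3, 60.5 and 60.5% to 68.0, 68.0 and 68.3%. Genes of a list can be absent from the counts or fail the filter. For these reasons 8 of 46 interferon-stimulated genes, 12 of 57 histones and 20 of 42 keratin and differentiation genes were not tested. A gene could pass the filter through the counts of 1 treatment alone. Counts of class members stand against 24.1% of all genes higher and 24.5% lower. The classes and their members were chosen with earlier results of these data known, so an excess over these shares describes the lists and is no test. In 15 classes the share was lower in all trametinib libraries than in all DMSO libraries. These were cytosolic and mitochondrial ribosomal proteins, elongation and initiation factors, ribosome biogenesis, RNA polymerase I and III, aminoacyl-tRNA synthetases, the stress response, nucleotide synthesis, DNA replication, mitosis, histones, ERK pathway output, cytosolic chaperones and splicing. In 7 it was higher in all, namely mitochondrially encoded proteins, the Wnt pathway, interferon-stimulated genes, antigen presentation, keratins and differentiation, lysosome and autophagy, and NRF2 antioxidant genes. In the remaining 9 the groups overlapped, and without DMSO replicate 1 they no longer did in 4 of these.

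**Figure D1:**
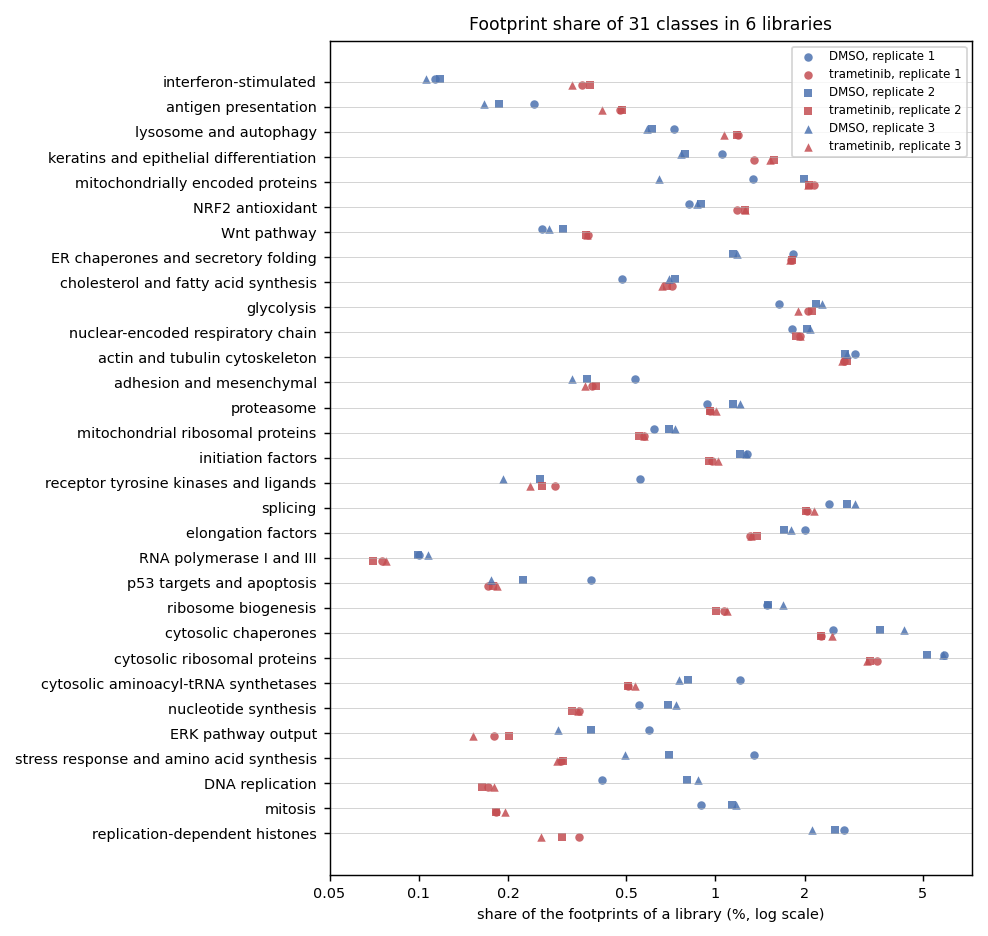
Share of all footprint counts of a library that fell on each of 31 classes, in percent on a log axis, for the DMSO (blue) and trametinib (red) libraries, with a marker shape per replicate; classes are ordered by the ratio of group means. Interferon-stimulated genes (0.113 to 0.353%) stand at the top and replication-dependent histones (2.46 to 0.304%) at the bottom, and DMSO replicate 1 (circles) lies apart from the other DMSO libraries in the stress response and in receptor tyrosine kinases and ligands.

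Cytosolic ribosomal proteins lost the most share of any class in percentage points. They took 5.90, 5.16 and 5.84% of footprints in the DMSO libraries and 3.52, 3.32 and 3.25% in the trametinib libraries, without overlap. Of 80 genes tested, 79 (98.75%) fell and 0 rose, with a median log2 change of -0.96. Members moved within a narrow range, from -1.43 to -0.42, and large-subunit (median -0.98, 46 of 47 fell) and small-subunit genes (median -0.94, 33 of 33 fell) were close. In input the same 80 genes had a median of 0.21, with 9 higher and 1 lower. The change in footprints beyond that in input, tested as an interaction over all 12 libraries, was called lower in 65 of the 80, compared with 1.01% of the 10623 genes tested in both assays. With a term for each pair of input and footprint libraries of 1 treatment and number, 69 of the 80 were called lower, compared with 1.37% of all (and 0.169% higher).

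RPL27, a large-subunit protein, fell most. It had 10917, 10654 and 12675 normalised counts in DMSO and 4134, 3945 and 4636 under trametinib (log2 change -1.43, SE 0.13, adjusted p = 3.2e-05), while its input differed by 0.06. RPL3, which helps form the peptidyl transferase centre and had the most footprint counts of the class, fell from 36803, 26517 and 26972 to 14535, 13482 and 12683. RPL17 was the member that did not pass the test (log2 change -0.42, adjusted p = 0.11). Its 3 DMSO values, 1250, 895 and 1675, overlapped those of trametinib, 963, 857 and 1040.

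Elongation factors were also lower in footprints, and most were higher in input. Their share was 2.00, 1.70 and 1.80% in DMSO and 1.31, 1.39 and 1.32% under trametinib, and 7 of 9 fell in footprints while 5 rose in input. EEF1A1, which brings aminoacyl-tRNA to the ribosome and is counted here only on sequence that no other gene shares, fell from 1.47, 1.13 and 1.23% of all footprints to 0.915, 0.979 and 0.929% (log2 change -0.62, SE 0.15, adjusted p = 0.0091) as its input rose by 0.54 (adjusted p = 0.01). The difference between the assays was -1.15 (adjusted p = 0.012). EEF1G, a subunit of the exchange factor for EEF1A, fell by 1.42 with input higher by 0.65. Of genes picked after their values were seen, EEF2, the translocase, fell by 0.69 with input higher by 0.62, and EEF1A2, the tissue-restricted copy of EEF1A1, was at 0.19 (adjusted p = 0.2).

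Initiation factors, which place the ribosome at the start codon, were lower in footprints. Of 36 tested, 25 fell and 0 rose (1 without DMSO replicate 3), with a median of -0.56 in footprints and -0.23 in input, and their share went from 1.28, 1.21 and 1.27% to 0.978, 0.955 and 1.02%. Beyond input, 5 were called lower, all of them named here after their values were seen: EIF4B, EIF3L, EIF2S3, EIF3G and EIF3H. EIF4B, a cofactor of the mRNA helicase, fell by 0.74 in footprints with input higher by 0.40. EIF2S2, the beta subunit of the factor that carries the initiator tRNA, had the largest fall, from 14774, 9701 and 8518 to 4058, 3948 and 4476 normalised counts (log2 change -1.40, adjusted p = 4.9e-04), and its input fell too, by 0.86. EIF3A, with the most footprint counts of these factors, was at -0.11 (adjusted p = 0.44).

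**Figure D2:**
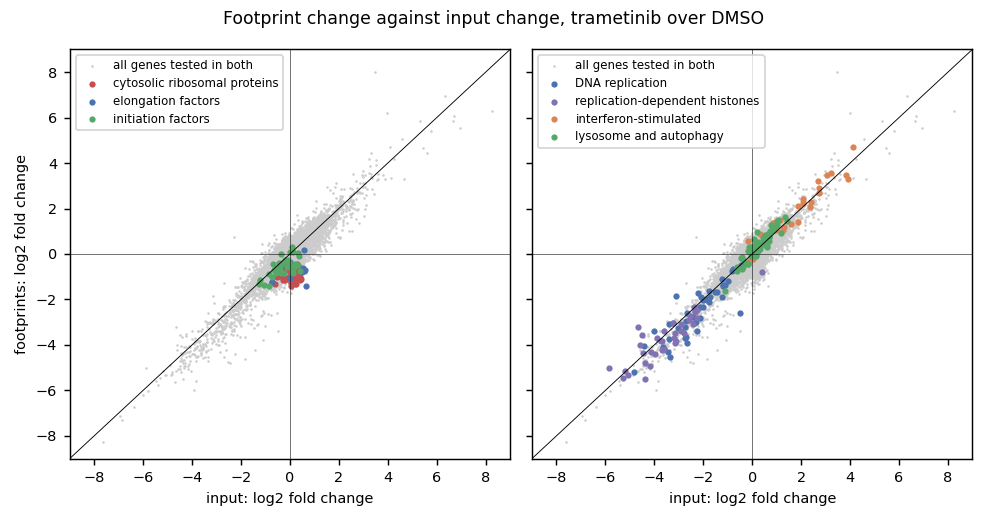
Log2 fold change in footprints against that in input for the 10623 genes tested in both, trametinib over DMSO, each point a gene; the diagonal marks equal change. On the left, ribosomal proteins (red) and most elongation factors (blue) lie below the diagonal near an input change of 0, and on the right replication, histone, interferon and lysosome genes lie along it.

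Of 82 ribosome biogenesis genes, which process rRNA and assemble subunits, 71 fell and 0 rose (median -0.80), and in input 49 of 79 fell (median -0.62). TCOF1, the nucleolar protein treacle that supports rRNA transcription, fell most, from 798, 916 and 1008 to 223, 178 and 195 normalised counts (log2 change -2.19, SE 0.14, adjusted p = 4.9e-06). NCL (nucleolin), the class member with the most footprints, fell by 0.70. Beyond input, FBL, the rRNA methyltransferase, was the member called (log2 difference -1.13, adjusted p = 0.0036). RNA polymerase I and III genes, which make rRNA, 5S RNA and tRNA, fell in 14 of 17 (median -0.74), among them POLR3G by 1.16 and the polymerase I catalytic subunit POLR1A by 0.66.

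Genes for charging and supplying amino acids were lower as well, and here the size depended on DMSO replicate 1. Of 22 cytosolic aminoacyl-tRNA synthetases, which load amino acids onto tRNAs, 17 fell and 0 rose. Their share was 1.21, 0.809 and 0.755% in DMSO and 0.507, 0.506 and 0.536% under trametinib. AARS1, the alanine enzyme, fell from 29566, 11369 and 9117 normalised counts to 4448, 4159 and 4184 (log2 change -1.97, and -1.26 without that replicate). YARS1, the tyrosine enzyme, fell by 2.19 and, without it, by 1.72.

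In the list of stress response and amino acid synthesis genes, targets of the transcription factor ATF4, 21 of 26 fell and 0 rose, with a median of -2.14. Shares were 1.35, 0.698 and 0.494% in DMSO and 0.303, 0.306 and 0.293% under trametinib, so that the lowest DMSO library lay above all trametinib libraries. Without DMSO replicate 1 the median was -1.38, with 21 lower and 2 higher. CHAC1, which degrades glutathione, fell from 1303, 717 and 397 to 18.1, 23.2 and 19.8 (log2 change -5.31, SE 0.46, adjusted p = 3.0e-05). SLC38A2, an importer of neutral amino acids, fell by 1.32, and by 0.95 without the replicate. In input 22 of 25 fell, with a median of -1.5. Beyond input 0 of the 25 were called, with a median difference of -0.18, and 3 were called lower with the term for library pairs.

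Nuclear-encoded mitochondrial ribosomal proteins fell in 46 of 76 (median -0.46) and rose in 0. MRPS18B fell most, from 2700, 3042 and 2662 to 1307, 1200 and 1270 (log2 change -1.15, adjusted p = 4.6e-05). Respiratory chain subunits made in the cytosol fell in 22 of 73 (30.1%, median -0.23) and rose in 0. The count that fell ran from 10 without trametinib replicate 1 or 2 and 14 without replicate 3 to 40 without DMSO replicate 1, when 2 rose, and 1 rose without DMSO replicate 2. Their share of 1.81 to 2.08% in DMSO overlapped that of 1.88 to 1.94% under trametinib, and did not without DMSO replicate 1, when the DMSO mean was 2.06%. COX8A of complex IV fell most, by 1.47. ATP5F1A of the ATP synthase was at -0.22 (adjusted p = 0.19), and without DMSO replicate 1 it fell by 0.31 (adjusted p = 0.024).

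The 13 proteins encoded in mitochondrial DNA, which mitochondrial ribosomes translate, had shares of 1.34, 1.99 and 0.646% in DMSO and 2.15, 2.07 and 2.05% under trametinib. All trametinib libraries lay above all DMSO libraries, and 0 of 13 genes passed the edgeR test in either direction. Without DMSO replicate 2, 6 of them were called higher, and without DMSO replicate 1, 1 was. At an unadjusted p under 0.05, 1 of them was higher and 0 lower, and DESeq2 and limma-trend called 1 and 0 higher. MT-CO1, a core subunit of complex IV, took 0.387, 0.567 and 0.188% of footprints in DMSO and 0.639, 0.631 and 0.634% under trametinib (log2 change 0.56, adjusted p = 0.18). Without DMSO replicate 2, the highest of them, it was called higher (0.95, adjusted p = 0.032). Input for the class had a median of -0.35, and the interaction was called for 0 of 13.

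Glycolysis took 1.64, 2.18 and 2.28% of footprints in DMSO and 2.06, 2.13 and 1.90% under trametinib, with 1 of 17 genes higher and 5 lower. Without DMSO replicate 1, 9 were lower and the shares no longer overlapped, and without any other library 3 were lower. HK2, the hexokinase of proliferating cells, fell from 2133, 1652 and 1601 to 870, 854 and 831 (log2 change -1.08, adjusted p = 2.2e-04). ALDOC, an aldolase, rose by 0.80, and PKM was at 0.00 (adjusted p = 0.99). Of 33 genes of cholesterol and fatty acid synthesis, 3 rose and 10 fell. TM7SF2, a sterol reductase, rose by 1.40 and ACSS2, which makes acetyl-CoA from acetate, fell by 1.21. FASN, the fatty acid synthase, was at -0.09 (adjusted p = 0.82) with 12190, 30756 and 26363 normalised counts in DMSO and 22542, 22479 and 20287 under trametinib. Without DMSO replicate 1, where it was low, it fell by 0.39 (adjusted p = 0.0094), and 18 of the class fell.

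Of 27 nucleotide synthesis genes 22 fell and 0 rose, and the share went from 0.554, 0.692 and 0.734% to 0.348, 0.329 and 0.345%. RRM2, the S phase subunit of ribonucleotide reductase, fell from 7088, 9462 and 10387 to 238, 256 and 312 (log2 change -5.07, SE 0.20, adjusted p = 2.9e-07). PAICS of purine synthesis fell by 0.81.

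Genes of cell division had the most negative medians of the 31 classes. All 45 tested replication genes fell (median -2.58), with shares of 0.415, 0.806 and 0.876% in DMSO and 0.171, 0.163 and 0.180% under trametinib. CDC45, part of the replicative helicase, fell from 474, 643 and 691 to 11.3, 17.2 and 22.1 (log2 change -5.19, adjusted p = 9.9e-07). MCM7, another helicase subunit and the member with the most footprints, went from 7022, 12934 and 14570 to 861, 906 and 967. Of 65 mitosis genes 64 fell (median -3.99) and the share went from 0.892, 1.14 and 1.18% to 0.182, 0.182 and 0.195%. AURKB, the kinase of the chromosomal passenger complex, fell from 2807, 2934 and 2704 to 67.9, 83.9 and 61.6 (log2 change -5.30, SE 0.15, adjusted p = 1.1e-07).

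CDC25B, the phosphatase that starts mitotic entry, was the one mitosis gene that rose. It had 6257, 5607 and 5544 normalised counts in DMSO and 7781, 8143 and 7168 under trametinib (log2 change 0.41, adjusted p = 0.016), and its input was at -0.15 (adjusted p = 0.6). The call was lost without DMSO replicate 2 (adjusted p = 0.0502), trametinib replicate 1 (0.0785) or trametinib replicate 2 (0.0881). Input fell in 63 of 64 mitosis genes and 43 of 45 replication genes. Beyond input, 6 mitosis genes and 1 replication gene were called lower, all chosen here after their values were seen: SKA3, FBXO5, NCAPD2, KIF15, KIF4A and KIF2C, and the nuclease-helicase DNA2. For FBXO5, an inhibitor of the anaphase-promoting complex, footprints fell by 4.79 and input by 2.43, a difference of -2.34 (adjusted p = 0.0012).

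Replication-dependent histones, made in S phase to package new DNA, gave up more than 2 percentage points. They took 2.72, 2.54 and 2.13% of footprints in DMSO and 0.348, 0.305 and 0.258% under trametinib. All 45 tested members fell, with a median of -3.71 (-3.70 with the 3 members that were at or under 3 counts in trametinib set to their bound). H1-2, a linker histone with the most counts of the class, fell from 56694, 44822 and 37034 to 10180, 8679 and 6157 (log2 change -2.47, adjusted p = 4.0e-05). H2AC16 had at most 2.0 normalised counts under trametinib and was at least 26.9-fold lower. Histone genes share long stretches, so their counts rest on the sequence that sets each copy apart. Tubulins, which form the mitotic spindle and the interphase microtubules, fell in 8 of 9, and their share went from 0.210, 0.402 and 0.498% to 0.0948, 0.0903 and 0.0940%. TUBA1B fell by 2.57 and TUBB by 2.24. Actin and its binding proteins rose in 5 and fell in 6 of 29, with shares that overlapped. Over actin and tubulin genes together, 9 rose without DMSO replicate 1 and 3 without any one of the trametinib libraries. EZR, a linker of actin to the membrane with the most counts, was at 0.13 (adjusted p = 0.67), and at 0.45 (adjusted p = 0.0069) without DMSO replicate 1. MYL6, a myosin light chain, rose by 1.03.

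Of 28 genes of ERK pathway output, the direct readout of the drug's target, 22 fell and 1 rose, and the feedback phosphatases and inhibitors fell in 8 of 9, their share going from 0.107, 0.0686 and 0.0542% to 0.00557, 0.00651 and 0.00451%. DUSP6, the ERK phosphatase (chromosome 12, 89347235 to 89352501, minus strand, Gencode v44), fell from 7507, 6160 and 4893 to 15.8, 34.4 and 9.3 normalised counts (log2 change -8.27, SE 0.37, adjusted p = 5.5e-07), the largest fall of all genes. SPRY4, an inhibitor of receptor signalling, fell by 7.13 and the ETS factor ETV5 fell by 6.75. The ephrin receptor EPHA2 was at -6.19, DUSP4 at -5.77 and the early response gene IER3 at -5.59. EPHA4 was the member that rose with all libraries, by 1.49, and without DMSO replicate 1 the list had 3 higher. PHLDA1, with the most counts of the list, fell by 0.90 (adjusted p = 0.029), and by 0.46 without DMSO replicate 1. Its call was lost without any one of the trametinib libraries.

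Of the 13 receptor tyrosine kinases in this list, 9 rose and 0 fell, with shares of 0.103, 0.0996 and 0.0862% in DMSO and 0.165, 0.170 and 0.157% under trametinib. The list leaves out the ephrin receptors EPHA2 and EPHA4, which are also receptor tyrosine kinases. Both were placed under ERK pathway output, where EPHA2 fell by 6.19 and EPHA4 rose by 1.49. FGFR3 rose most, from 104, 251 and 271 to 543, 547 and 676 normalised counts (log2 change 1.51, adjusted p = 0.0032). Of 5 ligands tested, 3 fell and 0 rose. Over receptors and ligands together, 5 fell without DMSO replicate 3. HBEGF, a ligand of EGFR, fell from 373, 114 and 83.6 to 12.1, 23.2 and 25.6 (log2 change -3.28), and by 2.31 without DMSO replicate 1. AREG was at -1.40 (adjusted p = 0.076), and at -0.22 without it. Without DMSO replicate 3 it fell by 1.80 (adjusted p = 0.017), and without the filter on low counts by 1.41 (adjusted p = 0.044).

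Wnt pathway genes, which the study set out to follow through AXIN1, were mostly higher. Of 41 tested, 22 rose and 1 fell (median 0.42), with 11 higher without trametinib replicate 1 and 14 without replicate 2. Without DMSO replicate 1, 4 fell, and without trametinib replicate 2, 2 fell. The class took 0.260, 0.306 and 0.274% of footprints in DMSO and 0.372, 0.365 and 0.369% under trametinib. AXIN2, a negative regulator that the pathway itself induces, rose from 2.7, 28.9 and 22.7 to 59.6, 82.9 and 87.2 (log2 change 2.16, SE 0.51, adjusted p = 0.0074), and by 1.58 without DMSO replicate 1. AXIN1, the scaffold of the complex that degrades beta-catenin, had 154, 167 and 167 normalised counts in DMSO and 90.6, 140 and 122 under trametinib. The groups did not overlap, and the change of -0.47 (SE 0.19) missed the threshold with an adjusted p of 0.06. Without DMSO replicate 1 it was -0.52 (adjusted p = 0.027) and without trametinib replicate 2 it was -0.63 (adjusted p = 0.043). Input of AXIN1 was at -0.28 (adjusted p = 0.31) and the interaction at -0.18 (adjusted p = 0.98). CTNNB1, beta-catenin itself, was at 0.12 (adjusted p = 0.52). SOX9, a transcription factor of intestinal progenitors, was the member that fell with all libraries, from 2495, 3196 and 2955 to 322, 388 and 329 (log2 change -3.06, adjusted p = 6.9e-07).

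The largest relative gain in share among the 31 classes was in interferon-stimulated genes, the antiviral programme that cells switch on in response to interferon. Their share went from 0.114, 0.118 and 0.106% to 0.354, 0.377 and 0.330%. Of 38 tested, 34 rose and 0 fell (2 without DMSO replicate 1), with a median of 2.17, or 2.10 with the 3 members at or under 3 counts in DMSO set to their bound. Among genes with at least 10 counts in all 6 libraries the class median was 1.51. GBP2, a GTPase of cell-autonomous immunity, rose from 35.4, 37.0 and 27.3 to 829, 971 and 753 normalised counts (log2 change 4.69, SE 0.18, adjusted p = 2.9e-07). GBP1 had 0 counts in all DMSO libraries and 12.1, 23.2 and 22.1 under trametinib, at least 5.59-fold higher. In input 21 of 27 rose, and the interaction was called for 0.

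Of 14 antigen presentation genes, 13 rose and 0 fell, and the share went from 0.244, 0.186 and 0.165% to 0.478, 0.484 and 0.414%. PSMB9, a subunit of the immunoproteasome (chromosome 6, 32844136 to 32859851), rose from 202, 262 and 279 to 2035, 2383 and 2058 (log2 change 3.13, adjusted p = 8.8e-07). B2M, the light chain of MHC class I, rose by 1.09. The remaining proteasome list fell in 23 of 35 and rose in 2. Its share was 0.940, 1.15 and 1.21% in DMSO and 0.958, 0.963 and 1.01% under trametinib, which overlapped through DMSO replicate 1. PSME1, an activator of the immunoproteasome, rose by 1.31, while PSMD14, the deubiquitinase of the regulatory particle, fell by 1.07 and the core subunit PSMB1 by 0.44. The call of PSMB1 was lost without trametinib replicate 1 or 2.

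**Figure D3:**
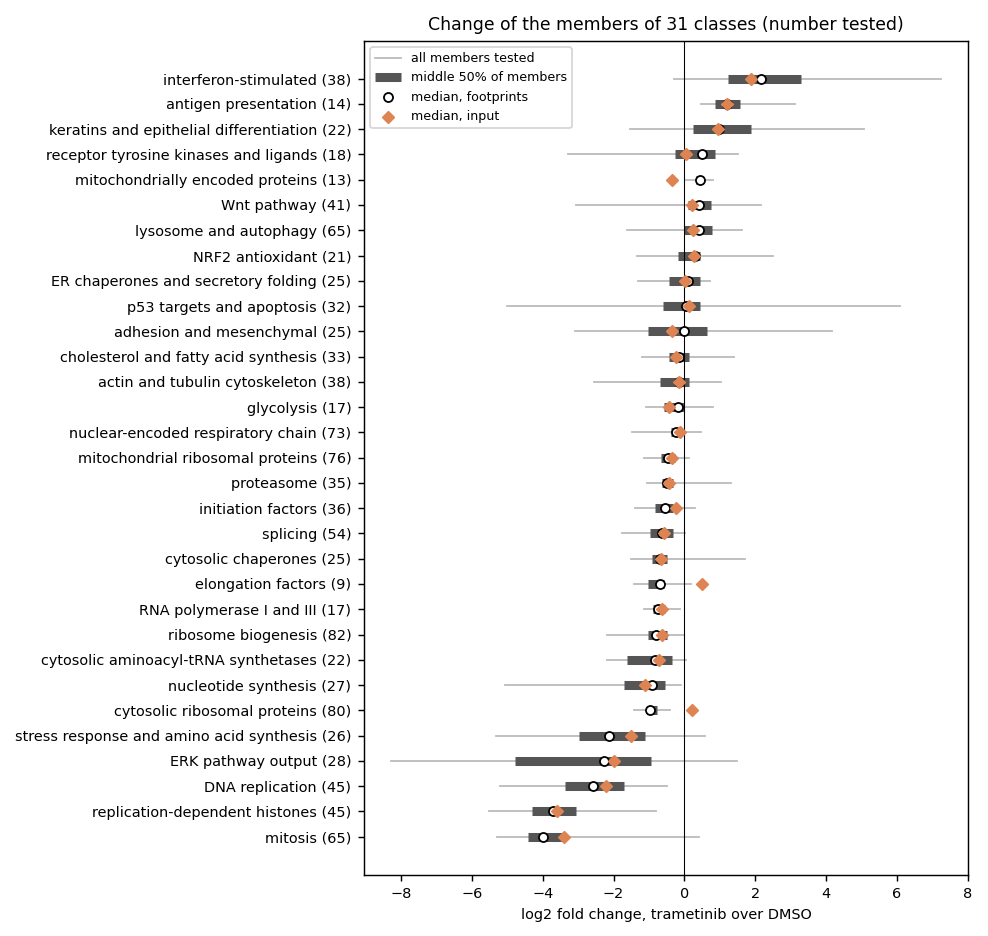
Log2 fold change in footprints of the tested members of each class, trametinib over DMSO, with the number tested in brackets. The thin line spans all members, the thick bar the middle 50%, the circle is the median and the orange diamond the median in input. The input median covers only the members tested in input. For the 27 interferon-stimulated genes tested there it was 1.87, and the footprint median of the same genes was 1.51. Footprint and input medians have opposite signs in cytosolic ribosomal proteins (-0.96 and 0.21), elongation factors (-0.69 and 0.48) and mitochondrially encoded proteins (0.43 and -0.35). Of the other classes they lie furthest apart in the stress response (-2.14 and -1.50) and mitosis (-3.99 and -3.41). Gene by gene, the median difference between the assays was smaller, at -0.18 in the stress response and -0.42 in mitosis. The interaction was called lower in 0 of 25 and 6 of 64 of their members. Thin lines hold fitted values, also for members at 0 in one group.

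Keratins, the intermediate filaments of epithelia, rose in 7 of 13 and fell in 0, going from 0.926, 0.693 and 0.674% to 1.18, 1.40 and 1.36%. KRT13 rose from 20.9, 17.7 and 13.6 to 399, 708 and 657 (log2 change 5.07, adjusted p = 2.3e-06), KRT19 by 0.91 and KRT8 by 0.68. Most of the gain in keratin share, 0.549 percentage points, lay in KRT19 (0.278) and KRT8 (0.241), and KRT13 gained 0.0039. Among enterocyte or secretory genes 5 of 9 rose and 2 fell, and over both groups 1 fell without trametinib replicate 3. DPP4, a brush border peptidase chosen after its value was seen, rose by 2.80 in footprints and by 1.64 in input, and was 1 of the 4 genes called higher beyond input (0.0377% of those tested; log2 difference 1.17, adjusted p = 0.0064). KLF4, a differentiation factor, fell by 1.54, and by 0.86 without DMSO replicate 1. Its call was lost without trametinib replicate 3 (adjusted p = 0.061).

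Lysosome genes, which encode hydrolases and membrane proteins of the degradative compartment, rose in 24 of 41 and fell in 3. Their share went from 0.537, 0.483 and 0.462% to 0.992, 0.982 and 0.887%. PSAP, the precursor of the saposins that help degrade sphingolipids, rose from 0.147, 0.107 and 0.0971% of footprints to 0.292, 0.285 and 0.269% (log2 change 1.08, adjusted p = 9.0e-04). CTSH, a cathepsin, rose by 1.62. Autophagy genes rose in 6 of 24 and fell in 3. Over lysosome and autophagy genes together, 6 fell, and 3 were called lower without trametinib replicate 2 or 3. MAP1LC3B, a coat protein of autophagosomes, fell by 1.62 (adjusted p = 0.042). Its counts were 1152, 275 and 191 in DMSO and 168, 190 and 171 under trametinib. Without DMSO replicate 1 the change was -0.38 (adjusted p = 0.066), and the call was also lost without any one of the trametinib libraries.

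NRF2 antioxidant genes had shares of 0.813, 0.897 and 0.867% in DMSO and 1.18, 1.26 and 1.26% under trametinib, with 6 of 21 higher and 2 lower. AKR1C3, an aldo-keto reductase, rose by 2.50 and OSGIN1 fell by 1.33, and by 0.61 without DMSO replicate 1. The call of OSGIN1 was lost without any one of the trametinib libraries, and 11 of the class rose without DMSO replicate 1 but 3 without trametinib replicate 2. The count that fell was 5 without DMSO replicate 1, 4 without DMSO replicate 3 and 1 without trametinib replicate 1 or 3. PRDX1, a peroxiredoxin with the most counts of the list, was at 0.32 (adjusted p = 0.18), and at 0.13 without DMSO replicate 1.

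Cytosolic chaperones fell in 17 of 25 and rose in 1 (2 without DMSO replicate 3), with shares of 2.49, 3.59 and 4.31% in DMSO and 2.28, 2.27 and 2.47% under trametinib. Of 8 subunits of the chaperonin CCT, which folds actin and tubulin, 7 fell (median -0.87). HSPH1 fell by 1.5 and HSPB1, a small heat shock protein, rose from 4014, 7214 and 6679 to 18902, 22139 and 17748 (log2 change 1.72, adjusted p = 2.5e-04). ER chaperones rose in 9 of 25 and fell in 2, or 4 without DMSO replicate 1. Their share was 1.83, 1.14 and 1.18% in DMSO and 1.79, 1.82 and 1.78% under trametinib, and without DMSO replicate 1 the groups no longer overlapped. HSPA5 was at -0.80 (adjusted p = 0.16), and at 0.09 (adjusted p = 0.47) without that library. HERPUD1, part of ER-associated degradation, fell by 1.32, and by 0.75 without it. DNAJC3 rose by 0.73.

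Splicing factors fell in 39 of 54 and rose in 0 (median -0.64), among them SRSF7 by 1.76 and HNRNPA2B1 by 1.09. In the list of p53 targets and apoptosis genes 10 of 32 rose (31.25%) and 8 fell (25%), compared with 24.1 and 24.5% of all genes. BMF, a pro-apoptotic BCL2 family member, rose from 3.6, 3.2 and 1.8 to 211, 214 and 172 (log2 change 6.07, adjusted p = 6.8e-07), and the stress cytokine GDF15 fell from 24152, 9200 and 4466 to 421, 405 and 356. Adhesion and mesenchymal genes rose in 7 of 25 (28%) and fell in 9 (36%). MMP7, an epithelial matrix metalloproteinase, rose from 64.4, 103 and 82.7 to 988, 1783 and 1680, and ITGB1 was at -0.34 (adjusted p = 0.25), or 0.02 without DMSO replicate 1.

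Single genes carried visible parts of the shift. HSP90AA1, the inducible cytosolic HSP90, lost the most share, from 0.642, 1.08 and 1.24% of footprints to 0.490, 0.526 and 0.616% (log2 change -1.04, adjusted p = 0.0059). HSP90AB1, its constitutive copy, went from 0.516, 0.791 and 0.889% to 0.546, 0.548 and 0.536%, which overlapped through DMSO replicate 1. Its fall (log2 change -0.61, adjusted p = 0.029) was not called without any one of the other libraries. Next to EEF1A1, both HSP90 genes and HSPA5, the genes that lost most were the histones H1-2, H3C2 and H1-4, the histone variant gene H2AZ1 (0.172, 0.196 and 0.196% to 0.0523, 0.0490 and 0.0511%), TUBB and HNRNPA2B1. ANXA2, a membrane-binding annexin, gained the most, from 0.315, 0.315 and 0.344% to 0.550, 0.681 and 0.723% (log2 change 0.82, adjusted p = 0.002). KRT19 followed with 0.285, 0.243 and 0.211% in DMSO and 0.491, 0.557 and 0.526% under trametinib. S100A4, a calcium-binding protein, rose by 1.35, CPOX, an enzyme of haem synthesis, by 1.43, and HSP90B1, the HSP90 of the ER, by 0.59. AKAP12, a kinase scaffold, was among the largest gains in share, yet its DMSO libraries spread from 0.318 to 0.782% and its change was 0.29 (adjusted p = 0.42), or 0.68 (adjusted p = 0.0025) without DMSO replicate 1.

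**Figure D4:**
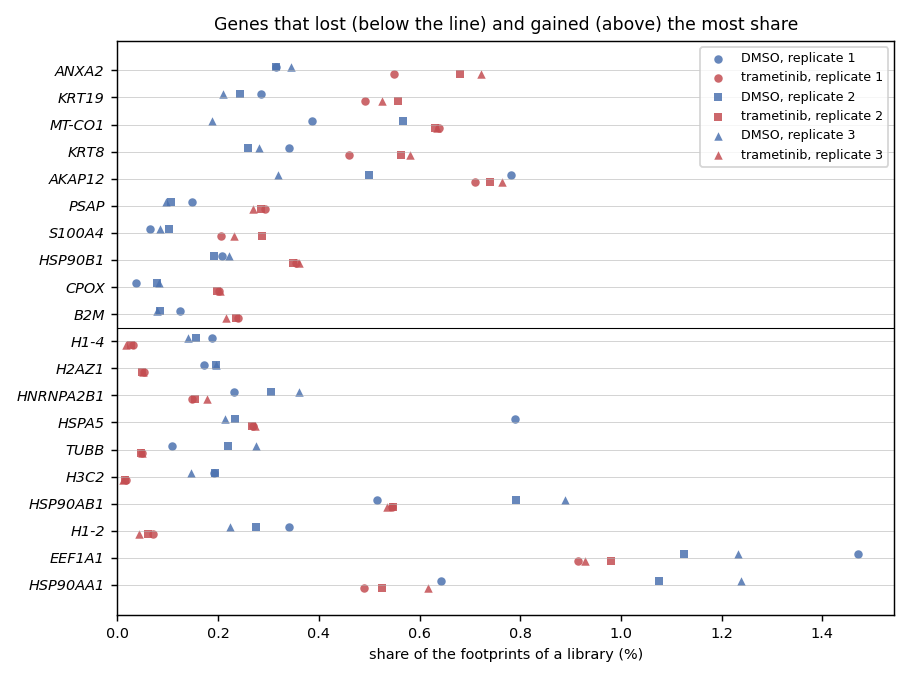
Share of the footprints of a library, in percent, for the 10 genes that gained the most (above the line) and the 10 that lost the most (below), in each DMSO (blue) and trametinib (red) library. Trametinib libraries lie close together, while DMSO replicate 1 (circle) is far from the other DMSO libraries for HSPA5 (0.789%), HSP90AA1 (0.642%) and AKAP12 (0.782%).

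By fold change among genes with a mean of at least 100 normalised counts, the rises outside the classes were in secreted and membrane proteins and a transcription regulator. MUC16, a membrane mucin, rose from 4.5, 6.4 and 3.6 to 313, 465 and 351 normalised counts (log2 change 6.31, SE 0.28, adjusted p = 5.9e-07). COL3A1, a fibrillar collagen and one of the fibroblast markers above, had at most 4.8 in DMSO and 185, 332 and 194 under trametinib, at least 69.2-fold higher against a floor of 3 counts per library. SAMD11 rose by 4.64 and GPR15, a G protein-coupled receptor, by 4.19. Falls outside the classes were UPP1, the uridine phosphorylase, and PKMYT1, a kinase that holds CDK1 inactive. UPP1 had 1685, 114 and 104 in DMSO and 9.8, 8.1 and 11.6 under trametinib, a log2 change of -6.02 with all libraries and of -3.45 without DMSO replicate 1. PKMYT1 fell by 5.63.

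Of the 1318 genes too weak for the input test, 390 rose (29.6%) and 164 fell (12.4%), compared with 23.4% and 26.0% of the genes tested in input. The filter can be met by the counts of 1 treatment alone. CASP1, which matures interleukin-1 family cytokines, had 0 counts in the DMSO footprint libraries and 49.1, 70.7 and 79.0 normalised counts under trametinib, at least 19.4-fold higher. APOL3 was at least 9.39-fold, ALPP at least 7.42-fold and IL18BP, which binds interleukin-18, at least 6.06-fold higher, each from 0 in DMSO. On the other side ANGPT2, an angiopoietin, was at least 13-fold lower, H2BC9 at least 11.5-fold, MND1, a meiotic recombination factor, at least 6.78-fold and GPR3 at least 5.71-fold lower. TNFSF18 fell from 149, 125 and 70.9 to 0.8, 4.0 and 3.5.

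Finally, the proteins under the footprints differed in composition. Each gene's protein was weighted by its footprints, which covered 99.98% of counts or more. Lysine made up 7.52, 7.37 and 7.58% of these residues in DMSO and 6.96, 6.93 and 7.04% under trametinib, a drop of 0.51 percentage points, and arginine 5.71, 5.66 and 5.71% and then 5.46, 5.45 and 5.44%. Glycine and alanine were also lower in all trametinib libraries. Leucine (9.10% ± 0.09, SD, n = 3, to 9.31% ± 0.03), phenylalanine (3.59 to 3.74%), serine, cysteine and tryptophan (0.996 to 1.08%) were higher in all. Without the ribosomal protein genes the difference in lysine was -0.40 points (7.19 to 6.79%). Serine then overlapped between the groups, at 6.997 to 7.102% in DMSO and 7.096 to 7.132% under trametinib. Proteins were also longer, with a mean over footprints of 587, 609 and 581 codons in DMSO and 628, 627 and 627 under trametinib. In 6 length bins drawn after the values had been seen, genes of more than 100 and up to 200 codons rose in 14.5% and fell in 36.8%, and genes of more than 1600 codons rose in 32.4% and fell in 15.4%.

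**Figure D5:**
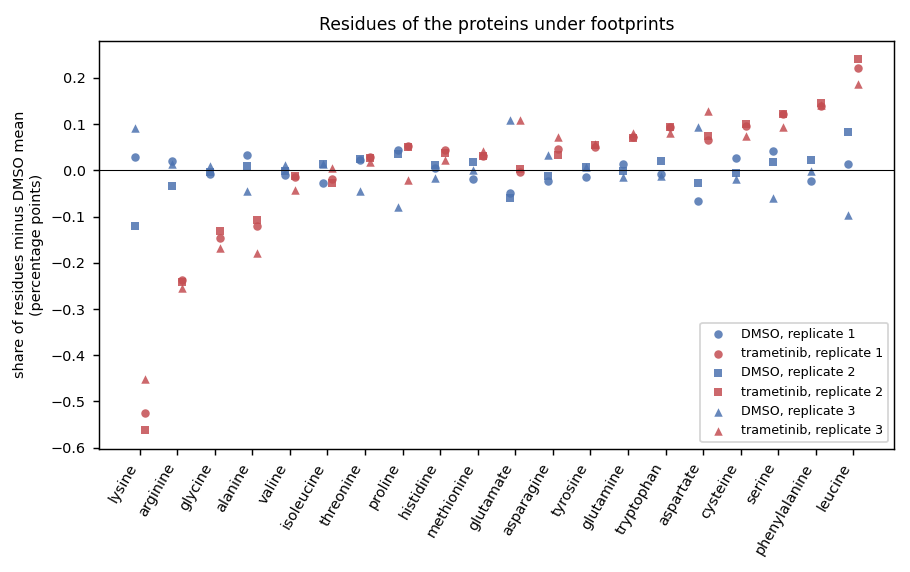
Share of each amino acid in the proteins under footprints, as the difference from the DMSO mean in percentage points, for each DMSO (blue) and trametinib (red) library, ordered by the change. Lysine (-0.51 points) and arginine (-0.24) lie lowest and leucine (0.22) and phenylalanine (0.14) highest, and the groups do not overlap for these residues.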

How the data were processed

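Footprints and input of HCT116 cells were analysed from 1 deposited table. According to the study's methods, lysates were digested with RNase I, monosomes were taken from a sucrose gradient, fragments of 25 to 35 nt were kept, rRNA and tRNA reads were removed with Bowtie 1.2.2 and the rest was mapped to Gencode transcripts. The authors counted, per gene symbol, reads inside reading frames of that symbol alone, so genes with near-identical copies are counted on part of their sequence. The deposited values used are raw counts, and 0 columns of libraries were left unmapped. Normalised values, fold changes and p-values of the authors (DESeq2 1.46.0) were not used. No 2 libraries held identical values.

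Counts were fitted with edgeR 4.0.16 in R 4.3.3 (TMM, glmQLFit, glmQLFTest, treatment only, two-sided), with Benjamini-Hochberg adjustment over all genes tested. Input was fitted alike, and footprints beyond input as the interaction over 12 libraries. Standard errors (SE) were derived from the test, as the absolute log2 change divided by the square root of its F statistic. The footprint fit was also run on simulated counts with known changes, with the same spread for all genes and libraries. Far fewer genes changed there than were called here, and no library stood apart. The simulation therefore does not measure how the fit performs on these data. Normalised counts are TMM-scaled to the mean library, and not per length, so they compare libraries and not genes. Class shares are of raw counts. A fold against 3 libraries with no more than 3 counts each is given as a bound against 3 counts per library. Amino acid makeup used reading frames of Gencode v44 (15553 of 15798 symbols matched, 104 of them through older symbols), and promoters came from RefSeq. Gene classes, members and named genes were chosen with earlier results of these data known. Named were the 8 largest rises and falls among called genes with a mean of at least 100 normalised counts and groups that did not overlap, the 10 largest gains and losses of share, the top rise, top fall and most counted member of each class, the 5 largest rises and falls among genes not tested in input, and AXIN1, AXIN2 and DUSP6. Some of the genes so named are not reported here. Counts of class members carry no set test, and the share of all genes called is given with the first of them. DESeq2 1.42.0 and limma 3.58.1 were alternatives, with other scalings and filters, a replicate block and leaving out each library.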

Additional observations from a re-analysis of the deposited data

How the results depend on the processing

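Input libraries held fewer counts than footprint libraries, and the median standard error of the interaction was 0.26, compared with 0.16 in footprints. No more than 3 libraries per group were made, DMSO replicate 1 stood apart, and only relative changes can be measured. Counts of genes higher and lower stayed within 1.5 times of 2876 and 2926 in both directions under median-of-ratios size factors, library totals, either filter, DESeq2, limma-trend, the replicate block, scaling without ribosomal protein and mitochondrially encoded genes, and without any one library. A 2-fold minimum left 1037 and 1132, and an adjusted p under 0.01 left 1876 higher. Same-numbered footprint libraries of both treatments deviated together with correlations of 0.0858, 0.121 and 0.264, so that the numbers are not shown to pair samples. With the replicate block, 2891 genes were higher and 2923 lower, and in input 1957 and 2047; of the named genes AREG (-1.01, adjusted p = 0.023) and AXIN1 (-0.49, adjusted p = 0.047) gained the call and MAP1LC3B (-1.20, adjusted p = 0.067) lost it, and 1 mitochondrially encoded gene was called higher. Beyond input, a block for libraries of the same treatment and number gave 18 genes higher and 146 lower, and the DESeq2 likelihood ratio test 36 and 150, in place of 4 and 107; the cause was not tested.

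Scaling by library totals moved all genes up by 0.19, and the class medians became -0.78 (cytosolic ribosomal proteins), -0.51 (elongation factors), -0.38 (initiation factors), -0.62 (ribosome biogenesis), -0.55 (RNA polymerase I and III), -0.64 (cytosolic aminoacyl-tRNA synthetases), -0.28 (mitochondrial ribosomal proteins), -0.048 (nuclear-encoded respiratory chain), -0.010 (glycolysis), -0.72 (nucleotide synthesis), -3.53 (replication-dependent histones), 0.67 (receptor tyrosine kinases and ligands), 0.61 (Wnt pathway), 2.36 (interferon-stimulated), 1.39 (antigen presentation), 0.22 (p53 targets and apoptosis), 0.60 (lysosome and autophagy), 0.28 (ER chaperones and secretory folding), -0.32 (proteasome), 0.50 (NRF2 antioxidant), 0.019 (actin and tubulin cytoskeleton), -0.46 (splicing). Counting footprints per codon, the log2 ratio of class shares was -0.42 (initiation factors), -0.43 (ribosome biogenesis), -0.40 (RNA polymerase I and III), -0.15 (mitochondrial ribosomal proteins), 0.056 (nuclear-encoded respiratory chain), -0.93 (receptor tyrosine kinases and ligands), 0.49 (Wnt pathway), 0.64 (NRF2 antioxidant), 0.083 (actin and tubulin cytoskeleton), and without the 10 genes with the most footprints that of keratins was 0.37. The interferon median was 1.51 with 10 or more counts in all libraries, and the histone median -3.55 by limma-trend. Over the fits that leave out 1 library each, class medians ran from -0.012 to 0.22 (ER chaperones and secretory folding), from -2.44 to -1.77 (ERK pathway output), from 0.18 to 0.30 (NRF2 antioxidant), from -0.81 to -0.67 (RNA polymerase I and III), from -0.20 to -0.055 (actin and tubulin cytoskeleton), from -0.75 to -0.65 (elongation factors), from 0.68 to 1.63 (keratins and epithelial differentiation), from 0.34 to 0.56 (lysosome and autophagy), from -0.088 to 0.065 (p53 targets and apoptosis), from -3.90 to -3.65 (replication-dependent histones), from -0.83 to -0.73 (ribosome biogenesis), from -0.65 to -0.51 (splicing), from -2.39 to -1.38 (stress response and amino acid synthesis), and the log2 share ratio of receptor tyrosine kinases and ligands from -0.63 to 0.22. Without ribosomal protein genes the amino acid differences were -0.40 (lysine), -0.17 (arginine), 0.051 (glutamine), 0.065 (serine) and 0.0017 points (valine), and without the 10 most counted genes -0.27 (arginine) and -0.17 (glycine). Among named genes 16 of 1478 values changed sign, all of genes that were not called: HSPA5 (-1.11 to 0.095), ITGB1 (-0.50 to 0.017), PKM (-0.071 to 0.043), FASN (-0.39 to 0.18) and EZR (-0.012 to 0.45) over the fits without 1 library; EIF3A at 0.075, PKM at 0.18 and FASN at 0.095 by library totals; PKM at 0.0041 with the stricter filter; and FASN at 0.019 by limma-trend and 0.012 with the replicate block. Another 29 values lost and 12 gained the call.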

Other observations

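Some gene families outside the classes were picked by symbol after their values were seen and are given without a test, beside 24.1% of all genes higher and 24.5% lower. Of 13 GALNT genes, which start O-linked glycosylation of mucins, 10 rose and 1 fell in footprints (median 0.74), from GALNT9 at 1.98 to GALNT14 at -0.42. Of 16 tetraspanins 12 rose and 2 fell, with TSPAN1 at 1.61 and TSPAN4 at -1.16. Semaphorins rose in 9 of 16 and fell in 0, led by SEMA3C at 2.63. RAB GTPases of vesicle traffic rose in 18 of 48 and fell in 2 (median 0.28). In input the medians of these families were 0.47, 0.42, 0.50 and 0.25.

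Other families held more falls than rises. Of 21 nuclear pore genes named NUP, 16 fell and 0 rose (median -0.63), with NUP107 at -1.78 and NUP214 at -0.24, and in input 17 fell. Of 14 TIMM genes of mitochondrial protein import, 10 fell and 0 rose (median -0.81), led by TIMM10 at -1.85. CENP genes, of the centromere and centrosome, fell in 18 of 20 and rose in 0, 7 of them members of the mitosis class.

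Beyond input, 3 genes outside the classes were called higher. SLIT2, a guidance cue, differed by 1.45, PACS1 by 0.80 and PROSER1 by 1.61. In footprints alone, SLIT2 rose by 1.72 and PACS1 by 0.68. Among the 22 called lower were AZIN1, the antizyme inhibitor (-1.05, with footprints lower by 1.94 and input by 0.88), AHCY (-0.85) and the mitochondrial carrier SLC25A6 (-1.14).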
